A study of Mus musculus with 20 samples.

Results

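Of the 22660 genes in the count table of this mouse plantaris study, 6 are described here: the plasminogen activators Plau (urokinase) and Plat (tissue-type plasminogen activator), the urokinase receptor Plaur, and the serpins Serpine2 (protease nexin-1), Serpinf1 (pigment epithelium-derived factor, PEDF) and Serpinb1a. They were chosen by name, each has 1 row in the table, and all 6 passed the filter on low counts in every comparison. RNA was sequenced from plantaris muscles of 20 male C57BL/6J mice labelled as 2 years old, none of which carried a transgene or deletion according to the labels and methods, with 5 mice in each of 4 groups. Vehicle sham mice had the skin opened without removal of muscle and were gavaged with polyethylene glycol vehicle, and D + Q sham mice had the same surgery and were gavaged with dasatinib (5 mg/kg), a tyrosine kinase inhibitor, and quercetin (50 mg/kg), a plant flavonoid. Vehicle MOV and D + Q MOV mice received the same gavages after mechanical overload (MOV), in which part of the soleus and gastrocnemius was cut away on both sides so that the plantaris carried more load. Muscles were collected 14 days after surgery, and the treatment protocol places the gavages on days 7 and 10, while the description of the study places the second gavage of sham mice on day 14.

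Plasminogen is a circulating zymogen that urokinase and tissue-type plasminogen activator cleave to plasmin, a serine protease that degrades fibrin and extracellular matrix and activates other proteases and growth factors. Urokinase acts at the cell surface when bound to its receptor, and serpins limit the system, protease nexin-1 being an inhibitor of thrombin, urokinase and plasmin. In skeletal muscle the system is known for its part in regeneration and in the growth response to overload, where inflammatory cells, satellite cells and fibroblasts are among its sources. PEDF is a secreted glycoprotein of the serpin fold that does not inhibit proteases, and Serpinb1a is an intracellular inhibitor of neutrophil serine proteases such as elastase and cathepsin G.

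Promoters are shown for the 3 of the 6 genes with an entry in the RefSeq promoter table (assembly GRCm38.p6), the receptor Plaur and the serpins Serpinf1, which were both higher with MOV, and Serpine2, which was lower with TMM scaling and not with total counts only. Each runs from 250 bases before to 50 bases after the RefSeq start site, 5′ to 3′ on the strand of the gene. Their positions on GRCm39 come from an exact match of each sequence to that genome, and are chr7:24161658-24161957 (plus strand) for Plaur, chr1:79836333-79836632 (minus strand) for Serpine2 and chr11:75313400-75313699 (minus strand) for Serpinf1. Capitals mark matches, on either strand, to 6 motifs. These were the AP-1 site with the letters TGANTCA, the GC box with the letters GGGCGG, the TATA box with the letters TATAAA, the E-box with the letters CACGTG, the CRE with the letters TGACGTCA, and the CCAAT box, named for its letters.
Plaur: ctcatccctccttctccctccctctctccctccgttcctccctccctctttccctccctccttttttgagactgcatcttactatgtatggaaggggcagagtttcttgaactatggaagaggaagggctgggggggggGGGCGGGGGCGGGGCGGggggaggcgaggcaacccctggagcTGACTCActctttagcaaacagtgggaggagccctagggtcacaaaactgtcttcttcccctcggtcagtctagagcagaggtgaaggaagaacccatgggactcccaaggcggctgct
Serpine2: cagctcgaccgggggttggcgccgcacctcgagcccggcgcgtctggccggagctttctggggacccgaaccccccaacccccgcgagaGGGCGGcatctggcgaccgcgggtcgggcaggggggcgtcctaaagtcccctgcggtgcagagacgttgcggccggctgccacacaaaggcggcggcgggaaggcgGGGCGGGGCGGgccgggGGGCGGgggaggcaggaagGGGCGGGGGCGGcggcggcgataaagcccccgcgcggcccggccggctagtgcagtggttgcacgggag
Serpinf1: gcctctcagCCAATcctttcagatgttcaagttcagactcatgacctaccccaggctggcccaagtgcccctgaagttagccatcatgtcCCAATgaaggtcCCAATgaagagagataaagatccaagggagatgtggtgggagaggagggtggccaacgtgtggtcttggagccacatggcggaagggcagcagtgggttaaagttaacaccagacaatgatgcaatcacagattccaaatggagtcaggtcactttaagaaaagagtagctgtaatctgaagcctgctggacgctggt
The Plaur promoter held 1 AP-1 match, beginning 69 bases before the start site, and 3 GC boxes. The Serpine2 promoter held 6 GC boxes and the Serpinf1 promoter 3 CCAAT boxes, and 2 of the GC boxes in each of Plaur and Serpine2 share a base. GC content was 59.3% in Plaur, 77.7% in Serpine2, which lay above 97.9% of the promoters in the table, and 50.7% in Serpinf1, against a median of 52.7% over 32851 promoters. Of those promoters, 7.81% held an AP-1 match, 35.7% a GC box, 37.4% a CCAAT box, 13.6% a TATA box, 7.15% an E-box and 1.79% a CRE. These matches describe the letters of the window and no binding was measured.

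The genes lie on different chromosomes of GRCm39 in the GENCODE annotation, at chr14:20886722-20893453 (Plau, plus strand), chr8:23247709-23272871 (Plat, plus strand), chr7:24161875-24175394 (Plaur, plus strand), chr1:79763323-79839144 (Serpine2, minus strand), chr11:75299998-75322362 (Serpinf1, minus strand) and chr13:33026042-33035224 (Serpinb1a, minus strand). Exons of Serpinf1 overlap those of Smyd4 on the opposite strand, and the setting for strand in counting was not given in the sources used here. Smyd4 was at 7.11 CPM in vehicle sham, 6.94 CPM in D + Q sham, 4.99 CPM in vehicle MOV and 4.70 CPM in D + Q MOV muscle. With TMM scaling its mean was thus lower in the MOV groups, in which Serpinf1 was higher. The difference in Smyd4 and any sharing of its reads with Serpinf1 were not tested. Serpinb1a has the close paralogs Serpinb1b and Serpinb1c, with which reads could be shared, and their group means were at most 0.176 and 0.955 CPM.

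Levels are in CPM, the estimated read count of a gene divided by the TMM-scaled library total and multiplied by 1000000. TMM scaling sets the library totals on the assumption that most genes do not move between mice. The total count lay between 17887495 and 26234505 per mouse, and the TMM factors lay between 0.829 and 0.886 in sham mice and between 1.06 and 1.24 in MOV mice. The defining markers of muscle fibers were abundant in every group, with Myh4, the fast IIb myosin heavy chain, at a mean of 58538 CPM in vehicle sham and 19705 CPM in vehicle MOV muscle. The vehicle MOV mouse labelled replicate 2 stood apart from the other MOV mice in markers of other cell types. Its summed CPM over 10 macrophage markers was 287 and over 8 markers of fibro-adipogenic progenitors 2306, the lowest of all 10 MOV mice, and over 5 erythroid markers 1027, the highest of all 20 mice. Results that rest on this mouse are given with and without it, apart from correlations over the MOV mice alone.

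With MOV and vehicle, the activators, the receptor and 2 of the serpins rose and Serpine2 fell. Serpinb1a changed most, 13.3-fold, followed by Plaur (5.73-fold), Plat (4.67-fold) and Serpinf1 (4.62-fold), while Plau rose 1.80-fold and Serpine2 fell to 0.818 of its sham level. All 6 genes passed edgeR's quasi-likelihood test at an adjusted p under 0.05, 5 of them higher and 1 lower, where 60.5% of the 14601 genes tested passed, 30.7% higher and 29.8% lower (64.2% at an unadjusted p under 0.05). Under D + Q the same 6 genes passed in the same directions, where 65.3% of 14913 genes passed, 34.4% higher and 30.9% lower (68% unadjusted). The median log2 fold change of the 6 genes was 2.22 with vehicle and 2.27 with D + Q, beside -0.02 and 0.02 over all genes tested. The groups did not overlap in 5 of the 6 genes with vehicle (46.5% of all genes tested) and in 5 of the 6 with D + Q (53.2%).

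**Figure D1:**
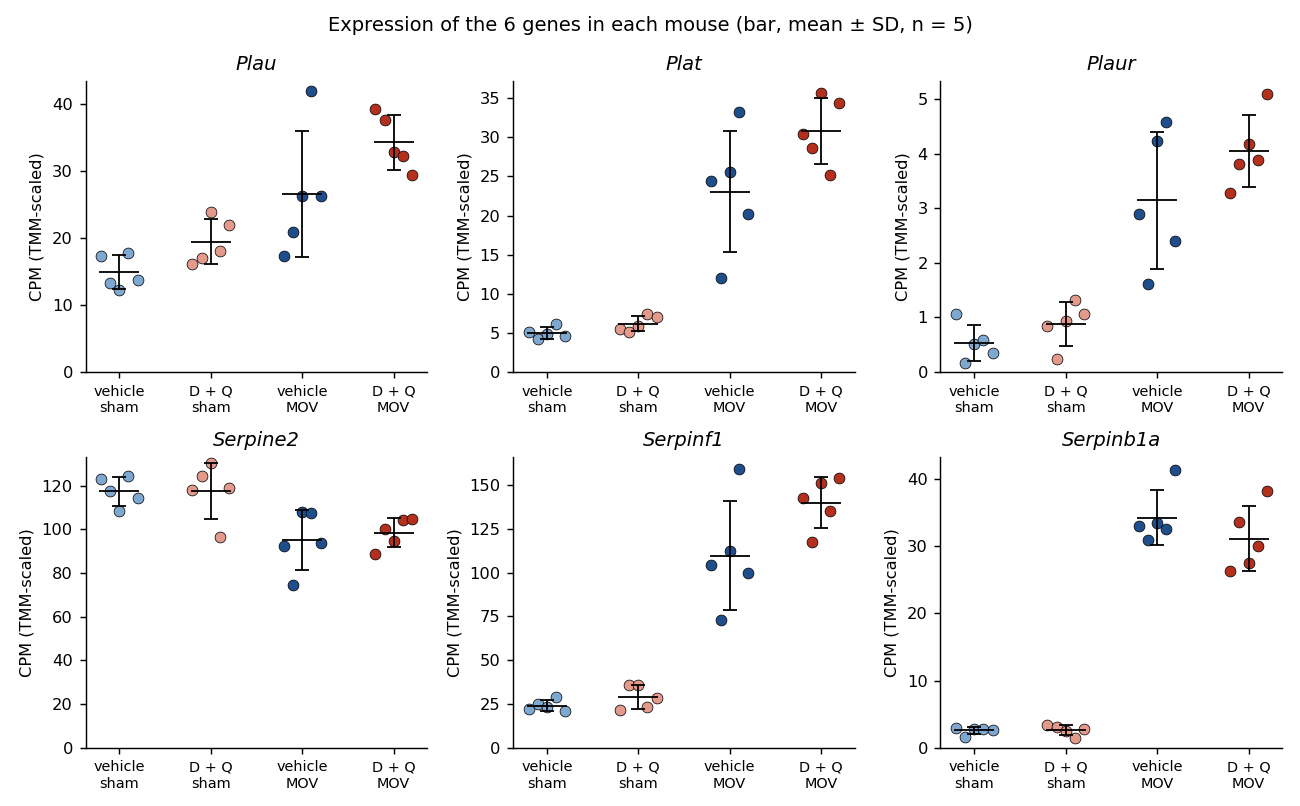
Expression of Plau, Plat, Plaur, Serpine2, Serpinf1 and Serpinb1a in CPM after TMM scaling (y axis, from 0) in each of the 20 mice, by group (x axis); points are mice and bars give the mean ± SD (n = 5). The MOV mice lie above all sham mice of their treatment in Plat, Plaur, Serpinf1 and Serpinb1a, while Serpine2 lies lower in MOV mice, a direction that turns without TMM scaling.

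Plau, which encodes urokinase, was at 17.3, 13.3, 12.2, 17.8 and 13.8 CPM in the vehicle sham mice. In vehicle MOV mice it was at 17.4, 20.9, 26.2, 41.9 and 26.3 CPM, so that 4 of the 5 lay above every vehicle sham mouse and 1 lay within their range. Plau had a log2 fold change of 0.85 (SE 0.221, 95% confidence interval 0.36 to 1.33, adjusted p = 0.00642 by edgeR's quasi-likelihood test with Benjamini-Hochberg adjustment). In D + Q sham mice Plau was at 16.2, 16.99, 23.9, 18.1 and 21.99 CPM. In D + Q MOV mice it was at 39.3, 37.5, 32.8, 32.3 and 29.4 CPM, all above the D + Q sham mice, with a log2 fold change of 0.86 (SE 0.111, adjusted p = 5.78e-06 by the same edgeR test). The spread of Plau was widest in vehicle MOV mice, where the coefficient of variation was 35.3%, against 16.9% in vehicle sham, 17.2% in D + Q sham and 11.9% in D + Q MOV mice.

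Plat, which encodes the activator best known for dissolving fibrin clots, was at 5.06, 4.26, 4.83, 6.17 and 4.59 CPM in vehicle sham mice and at 24.4, 12.03, 25.5, 33.2 and 20.1 CPM in vehicle MOV mice. The groups did not overlap, and the lowest MOV value was that of replicate 2. On the log2 scale Plat rose by 2.22 (SE 0.237, adjusted p = 7.97e-06 by edgeR's quasi-likelihood test), and 2.41 without vehicle MOV replicate 2. In D + Q sham mice Plat was at 5.46, 5.11, 5.90, 7.38 and 7.03 CPM and in D + Q MOV mice at 30.4, 28.7, 35.6, 25.2 and 34.3 CPM, without overlap. Its rise with D + Q was 2.36 on the log2 scale (SE 0.116, adjusted p = 3.23e-11 by edgeR). Because Plat rose more than Plau, the ratio of Plau to Plat counts within a mouse went from 2.99 ± 0.327 (SD, n = 5) in vehicle sham to 1.21 ± 0.380 in vehicle MOV mice, and from 3.18 ± 0.582 in D + Q sham to 1.13 ± 0.225 in D + Q MOV mice.

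Plaur, the membrane-anchored receptor of urokinase, had the lowest level of the 6 genes, with 3 to 23 counts in vehicle sham mice, which corresponds to 1.06, 0.173, 0.516, 0.582 and 0.353 CPM. In vehicle MOV mice it had 31 to 105 counts, at 2.89, 1.61, 4.24, 4.59 and 2.41 CPM, and every MOV mouse lay above every sham mouse. The log2 fold change was 2.52 with a 95% confidence interval of 1.66 to 3.37 (adjusted p = 6.99e-05 by edgeR's quasi-likelihood test), the widest interval of the 6 genes. In D + Q sham mice Plaur was at 0.840, 0.244, 0.927, 1.31 and 1.07 CPM, and in D + Q MOV mice at 3.28, 3.82, 4.18, 3.88 and 5.09 CPM. These groups did not overlap either, with a log2 fold change of 2.22 (SE 0.268, adjusted p = 1.07e-06 by edgeR).

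Serpine2, the inhibitor of thrombin, urokinase and plasmin, was at 123, 117, 108, 125 and 114 CPM in vehicle sham mice and at 92.7, 74.5, 108, 108 and 93.7 CPM in vehicle MOV mice. The lowest sham mouse lay at 108.3 CPM and the highest MOV mouse at 107.9 CPM, so the groups did not overlap but nearly met. Serpine2 had a log2 fold change of -0.29 (SE 0.0927, adjusted p = 0.0137 by edgeR's quasi-likelihood test), and -0.19 (adjusted p = 0.0352) without vehicle MOV replicate 2. In D + Q sham mice Serpine2 was at 118, 125, 130.3, 96.4 and 119 CPM and in D + Q MOV mice at 88.9, 100.2, 94.6, 104 and 105 CPM, and here the groups overlapped. With D + Q the log2 fold change was -0.21 (SE 0.0737, adjusted p = 0.0200 by edgeR). The direction of Serpine2 depended on the scaling. Relative to total counts alone its means were 101.5 CPM in vehicle sham, 108.4 CPM in vehicle MOV, 103.3 CPM in D + Q sham and 115.1 CPM in D + Q MOV mice, with log2 fold changes of 0.10 (adjusted p = 0.484) and 0.16 (adjusted p = 0.0701) in edgeR. With total counts alone the median gene shifted upward by 0.38 with vehicle and 0.36 with D + Q on the log2 scale, and the share of called genes that were higher went from 50.8% to 84.1% and from 52.6% to 83.5%. The other 5 members were called higher under both scalings.

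Serpinf1, which encodes PEDF, was at 22.3, 24.9, 23.1, 28.8 and 20.8 CPM in vehicle sham mice. In vehicle MOV mice it was at 104, 73.2, 112, 159 and 99.8 CPM, again lowest in replicate 2 and in every mouse above the sham group. Serpinf1 rose by 2.21 on the log2 scale (SE 0.186, adjusted p = 1.75e-06 by edgeR's quasi-likelihood test). D + Q sham mice had 21.3, 36.0, 35.9, 23.5 and 28.5 CPM and D + Q MOV mice 142, 118, 151, 135 and 154 CPM, without overlap. Its rise with D + Q was 2.32 (SE 0.152, adjusted p = 1.65e-07 by edgeR), and Serpinf1 counts went from below Serpine2 counts in every sham mouse to 1.14 ± 0.197 times them (SD, n = 5) in vehicle MOV and 1.43 ± 0.189 times them in D + Q MOV mice.

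Serpinb1a, the inhibitor of neutrophil elastase-type proteases, showed the widest separation. It was at 2.99, 1.61, 2.77, 2.85 and 2.65 CPM in vehicle sham mice and at 32.9, 30.8, 33.4, 32.5 and 41.3 CPM in vehicle MOV mice, with a log2 fold change of 3.74 (SE 0.140, adjusted p = 2.41e-10 by edgeR's quasi-likelihood test). It was at 3.36, 3.04, 2.54, 1.46 and 2.75 CPM in D + Q sham mice and at 26.4, 33.6, 27.5, 30.0 and 38.2 CPM in D + Q MOV mice, a 12.3-fold difference (log2 fold change 3.62, SE 0.166, adjusted p = 2.55e-10 by edgeR). The lowest MOV mouse of all was at 26.4 CPM and the highest sham mouse at 3.36 CPM. Unlike Plat, Plaur and Serpinf1, Serpinb1a was close to the rest of the group in vehicle MOV replicate 2, which at 30.8 CPM was still its lowest mouse. The sum over the 7 neutrophil markers with a row was 0.920 to 2.94 CPM in vehicle sham, 1.07 to 4.61 CPM in D + Q sham, 3.25 to 7.50 CPM in vehicle MOV and 3.13 to 5.64 CPM in D + Q MOV mice. Retnlg, Mmp8 and Camp were at 0 in 4, 7 and 8 of the 20 mice. With MOV and vehicle Csf3r rose by 2.74 and S100a9 by 1.78 on the log2 scale, both called, and S100a8 was not called. With D + Q Csf3r rose by 2.29 and S100a9 was at -1.02, not called. The part of neutrophils in the level of Serpinb1a was not tested.

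**Figure D2:**
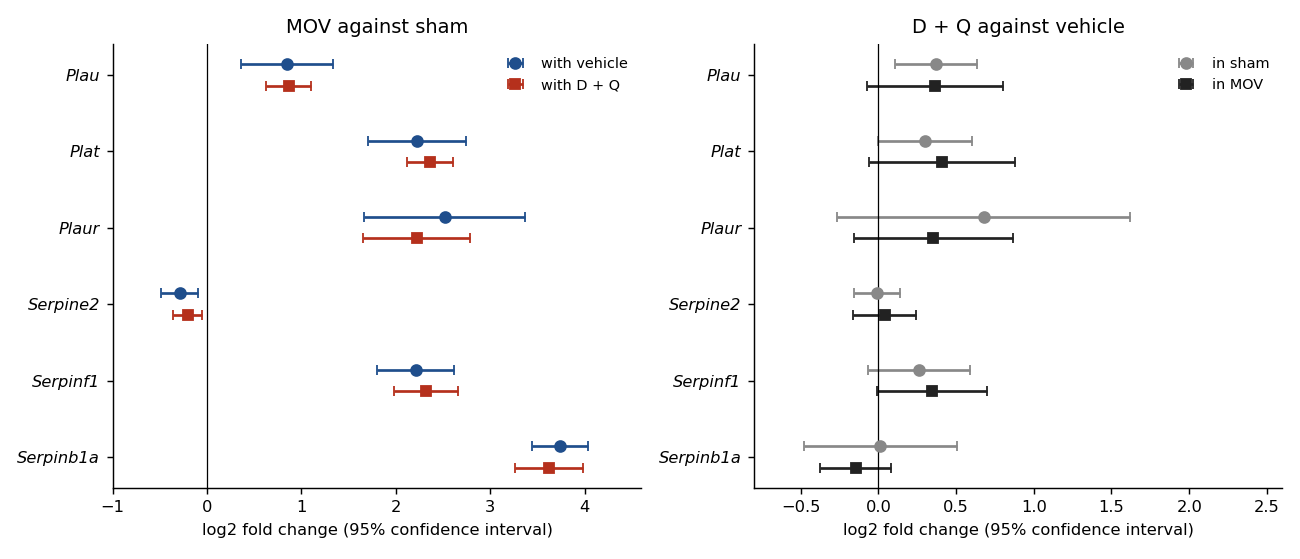
Log2 fold change (x axis) of each of the 6 genes (y axis) from edgeR, with 95% confidence intervals as bars, for MOV against sham (left; circles, vehicle; squares, D + Q) and for D + Q against vehicle (right; circles, sham; squares, MOV). The MOV effects lie from -0.29 to 3.74 and their intervals leave out 0 in all 6 genes (Serpine2 turns above 0 without TMM scaling), while the D + Q effects lie from -0.15 to 0.68 and, apart from Plau in sham muscle, their intervals include 0.

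Markers of several other cells of the muscle moved with MOV as well. In bulk tissue a change in the number of cells of a type and a change in RNA per cell cannot be told apart. Of all genes tested, 30.7% were higher with vehicle and 34.4% with D + Q, and 29.8% and 30.9% were lower. Of 10 macrophage markers, 9 were higher with vehicle and 10 with D + Q. Their summed level was 60.5 to 154 CPM in vehicle sham, 66.7 to 160.4 CPM in D + Q sham, 287 to 858 CPM in vehicle MOV and 627 to 749 CPM in D + Q MOV mice. All 8 markers of fibro-adipogenic progenitors, the resident fibroblast-like cells of muscle, were higher in both, with sums of 395 to 551 CPM, 456 to 726 CPM, 2306 to 4330 CPM and 3665 to 5084 CPM in the same order of groups. All 5 tenocyte markers were higher in both, with sums of 39.9 to 60.3 CPM, 57.4 to 75.4 CPM, 158 to 234 CPM and 236 to 326 CPM. Of 8 muscle fiber markers, 5 were lower with vehicle and 6 with D + Q, and 1, Myh2, named after its values were seen, was higher in both. Other lists moved less or in part. With vehicle, 6 of 8 endothelial, 3 of 5 satellite cell, 2 of 3 neutrophil and 2 of 6 Schwann markers tested were higher. Of 7 mural markers 3 were higher and 1 lower, of 5 adipocyte markers 4 were lower, and of 5 erythroid markers 0 were called. The part of these cell populations in the change of the 6 genes was not tested.

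Levels can be compared between genes only relative to transcript length, and are given here as mean CPM per kb of the canonical transcript in GENCODE. In vehicle sham muscle the order was Serpine2 (53.2), Serpinf1 (9.87), Plau (6.34), Plat (1.92), Serpinb1a (1.34) and Plaur (0.348), and no mouse of 1 gene overlapped with the next gene in this order. In vehicle MOV muscle Serpinf1 (45.2) and Serpine2 (43.1) came first and overlapped, followed by Serpinb1a (17.8), Plau (11.3), Plat (8.90) and Plaur (2.04). Among these, Serpinb1a overlapped with Plau and Plau with Plat. The order depended on which exons were counted. With the length of all annotated exons, Serpine2, which has long alternative exons, was at 7.74 CPM per kb in vehicle MOV muscle, below Serpinf1 (30.3), Serpinb1a (12.3) and Plau (10.3).

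**Figure D3:**
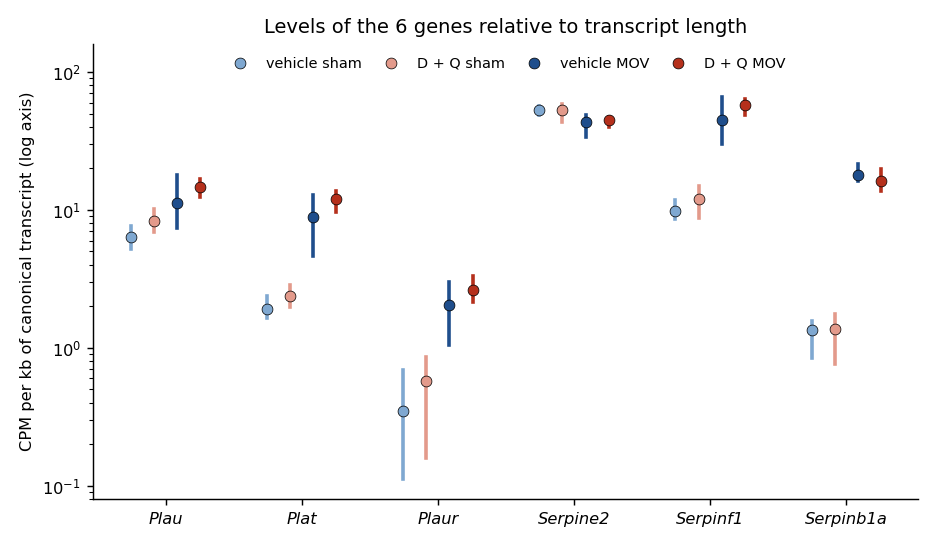
Mean CPM per kb of canonical transcript (y axis, log scale) of the 6 genes (x axis) in the 4 groups; points are means and lines run from the lowest to the highest of 5 mice. Serpine2 is the highest in both sham groups, and Serpinf1 reaches its level in both MOV groups, while Plaur is the lowest in every group.

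Ratios of counts within a mouse do not depend on the scaling. The ratio of Plau to Serpine2 counts was 0.126 ± 0.0147 (SD, n = 5) in vehicle sham, 0.166 ± 0.0268 in D + Q sham, 0.276 ± 0.0739 in vehicle MOV and 0.351 ± 0.0627 in D + Q MOV mice. The ratio of Plat to Serpine2 was 0.0423 ± 0.00501, 0.0536 ± 0.0145, 0.237 ± 0.0547 and 0.315 ± 0.0523 in the same order. Mean ratios of both activators to Serpine2 were thus higher in MOV mice. These ratios restate the counts of single genes and were not tested.

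D + Q against vehicle was compared separately in sham and in MOV muscle, since the study asked what the senolytic gavages did in each. In sham muscle 0 of the 6 genes passed edgeR's quasi-likelihood test at an adjusted p under 0.05 (0.215% of 13926 genes passed, 0.187% higher and 0.0287% lower), 1 of the 6 did at an unadjusted p under 0.05 (10.2% of genes), and DESeq2 and limma-voom called 0. That gene was Plau, with a log2 fold change of 0.37 (95% confidence interval 0.11 to 0.64, adjusted p = 0.314 in edgeR). An exact two-sided permutation test of its mean log2 CPM gave p = 0.0635, where the smallest that 5 against 5 mice allow is 0.00794. Of the 5 D + Q sham mice, 3 lay above all vehicle sham mice, and the groups overlapped in all 6 genes (2.12% of all genes tested did not overlap). Plat differed by 0.30 (interval -0.00 to 0.60, adjusted p = 0.492 in edgeR, exact permutation p = 0.0635), Plaur by 0.68 (interval -0.27 to 1.62, adjusted p = 0.649) and Serpinf1 by 0.26 (interval -0.07 to 0.59, adjusted p = 0.588). The Plaur value moved to 1.12 without vehicle sham replicate 1 and to 0.46 without vehicle sham replicate 2. Serpine2 differed by -0.01 (interval -0.16 to 0.14) and Serpinb1a by 0.01 (interval -0.48 to 0.51), the latter interval being the wider.

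In MOV muscle 0 of the 6 genes passed edgeR's test between D + Q and vehicle (0% of 15238 genes passed), 0 did at an unadjusted p under 0.05 (8.79% of genes), and DESeq2 and limma-voom called 0. The study itself reported higher Plau with D + Q in this comparison, from its own RNA sequencing analysis with DESeq2. The cause of this difference was not tested. The groups overlapped in all 6 genes (1.5% of all genes tested did not overlap). Plau was higher by 0.36 on the log2 scale (interval -0.07 to 0.80, adjusted p = 0.613 in edgeR, exact permutation p = 0.103), with every D + Q MOV mouse inside the range of the vehicle MOV mice, since the vehicle mouse at 41.9 CPM, replicate 4, lay above all of them. Without that mouse the difference was 0.58 and without vehicle MOV replicate 1 it was 0.24, neither of them called. Plat differed by 0.41 (interval -0.06 to 0.88, adjusted p = 0.591, exact permutation p = 0.0714), Serpinf1 by 0.35 (interval -0.01 to 0.70, adjusted p = 0.563, exact permutation p = 0.0873) and Plaur by 0.35 (interval -0.16 to 0.87, adjusted p = 0.672, exact permutation p = 0.175). These 3 differences were smaller without vehicle MOV replicate 2, at 0.25 for Plat, 0.23 for Serpinf1 and 0.19 for Plaur. Serpine2 differed by 0.04 (interval -0.16 to 0.24, adjusted p = 0.904) and, without that mouse, by -0.04. Serpinb1a was the 1 gene of the 6 with a lower mean under D + Q, by -0.15 (interval -0.37 to 0.08, adjusted p = 0.696, exact permutation p = 0.286), with 3 D + Q MOV mice below all vehicle MOV mice.

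The response to MOV was not shown to differ between D + Q and vehicle for any of the 6 genes. In the interaction of D + Q and MOV, fitted on all 20 mice in edgeR, 0 of the 6 genes passed (0.0127% of 15700 genes passed, 0.00637% in each direction), 0 did at an unadjusted p under 0.05 (5.71% of genes), and DESeq2 and limma-voom called 0. The interaction was -0.01 for Plau (interval -0.57 to 0.54), 0.10 for Plat (-0.49 to 0.69), -0.33 for Plaur (-1.36 to 0.71), 0.05 for Serpine2 (-0.21 to 0.30), 0.08 for Serpinf1 (-0.45 to 0.60) and -0.15 for Serpinb1a (-0.64 to 0.34), with adjusted p-values of 0.975 or more in edgeR. The intervals of Plau, Plat, Serpinf1 and Serpinb1a leave room for differences in response of more than 0.5 on the log2 scale, up to 0.69 for Plat, and that of Plaur for larger ones. Without vehicle sham replicate 1 the Plaur interaction was -0.77, and without vehicle sham replicate 2 it was -0.10.

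An average of the D + Q effect over sham and MOV muscle, with all 20 mice in 1 edgeR fit, was added after the data had been seen. In it 23 of 15700 genes (0.146%) passed at the same threshold and none of the members did, although 4 of the 6 members had an unadjusted p under 0.05, as had 13.7% of all genes tested. Plau was higher with D + Q by 0.37 on the log2 scale (95% confidence interval 0.10 to 0.65, adjusted p = 0.211 in edgeR), Plat by 0.36 (0.07 to 0.66, adjusted p = 0.248), Serpinf1 by 0.31 (interval 0.05 to 0.58, adjusted p = 0.272) and Plaur by 0.52 (0.00 to 1.04, adjusted p = 0.364). Serpine2 was at 0.02 (-0.10 to 0.15, adjusted p = 0.899) and Serpinb1a at -0.06 (-0.31 to 0.18, adjusted p = 0.869). Without vehicle MOV replicate 2 the values were 0.33 for Plau, 0.28 for Plat, 0.25 for Serpinf1, 0.44 for Plaur, -0.02 for Serpine2 and -0.08 for Serpinb1a.

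Other genes of the plasminogen system were read from a list of its receptors, inhibitors, clearance receptors and cofactors. Of 21 genes, 13 were tested, 5 (Plg, Serpinf2, Serpina5, Cpb2 and F12) were not analysed here, and Serpinb2, Lrp8 and Klkb1 had too few counts. In MOV against sham muscle 10 were higher and 1 lower both with vehicle and with D + Q, beside the 30.7% higher and 29.8% lower of all genes with vehicle, and the median log2 fold change of the 13 was 1.37 and 0.96. Among plasminogen receptors, Anxa2 and S100a10, which form the annexin A2 complex that binds plasminogen and Plat, rose by 2.67 and 2.25 with vehicle and by 2.45 and 1.90 with D + Q. Eno1, a glycolytic enzyme that also binds plasminogen at the cell surface, rose by 0.74 and 0.90, and Plgrkt, a transmembrane plasminogen receptor, rose by 0.27 with D + Q (adjusted p = 0.0185 in edgeR) and was at 0.16 with vehicle (adjusted p = 0.275). Among partners of the urokinase receptor, Mrc2, a collagen uptake receptor that associates with it, rose by 3.06 and 2.90, and the integrin subunits Itgb3 and Itgav by 2.45 and 1.94 and by 0.48 and 0.56. Vtn, the matrix protein that binds the receptor, rose by 0.53 with vehicle (adjusted p = 0.0136) and was at 0.26 with D + Q (adjusted p = 0.121).

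Among clearance receptors and cofactors, Lrp1, the endocytic receptor that removes activator and serpin complexes, rose by 1.54 with vehicle and 1.53 with D + Q on the log2 scale. Vldlr, a related receptor with the same kind of ligands, was the 1 gene of the list that fell, by 1.39 with vehicle and 1.25 with D + Q. Thbd, which encodes thrombomodulin, rose by 1.37 and 0.96 with MOV. It was also the 1 gene of the list called between D + Q and vehicle, in sham muscle, where it was higher by 0.68 (adjusted p = 0.0417 in edgeR). That call was lost with all 20 mice in 1 fit (adjusted p = 0.203) and in 8 of the 10 fits that left out a mouse. At an unadjusted p under 0.05 in edgeR, in either direction, 8 of the 13 genes tested passed in sham muscle, beside 10.2% of all genes. In MOV muscle 2 of the 13 did, beside 8.79%.

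**Figure D4:**
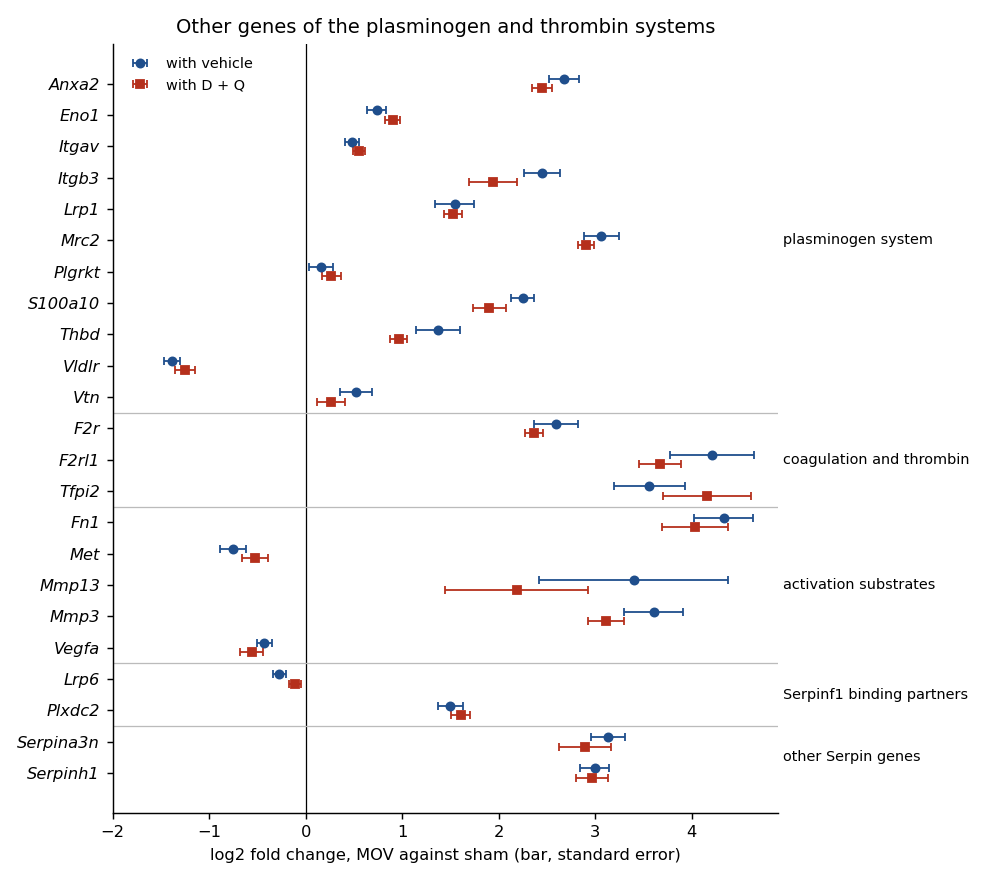
Log2 fold change between MOV and sham muscle (x axis; bars, standard error) of the named genes of each list (y axis), with vehicle (circles) and D + Q (squares). Vldlr, Met, Vegfa and Lrp6 lie below 0, where Lrp6 turns and the falls of Vegfa and, with D + Q, of Met are no longer called when only total counts are used; the other genes lie above 0.

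Genes of coagulation and thrombin, the protease that Serpine2 inhibits, were 6 higher and 0 lower of 11 tested with vehicle, and 6 higher and 1 lower with D + Q, so that the share called was near that of all genes (60.5% and 65.3%, of which 30.7% and 34.4% were higher). The largest rises with vehicle were those of F2rl1, the protease-activated receptor 2, by 4.21 (3.67 with D + Q), Tfpi2, a Kunitz-type inhibitor of plasmin, by 3.56 (4.16), and F2r, the thrombin receptor, by 2.595 (2.37). Tfpi2 had too few counts to be tested between the sham groups, and its rise starts from few sham counts. In each treatment it passed the filter in only 5 of the 10 fits that left out a mouse. The gene that fell with D + Q, named after its values were seen, was F2rl3, another protease-activated receptor, by 0.49. With vehicle F2rl3 was at -0.43 (adjusted p = 0.194 in edgeR). The F2rl3 call with D + Q was lost with total counts only (-0.13, adjusted p = 0.608 in edgeR), in 2 more of 7 alternative fits and in 8 of the 10 fits that left out a mouse. A further list held secreted proteins that plasmin or its activators cleave, together with the receptor Met. Of this list, 6 rose and 2 fell of 10 tested with vehicle, and 7 rose and 3 fell of 11 with D + Q. The same 60.5% and 65.3% of all genes were called. Fn1 (fibronectin) rose by 4.33 and 4.04, Mmp3 (stromelysin-1) by 3.61 and 3.11, and Mmp13 (a collagenase) by 3.40 and 2.19. Vegfa fell by 0.43 and 0.56 and Met, the receptor of hepatocyte growth factor, by 0.75 and 0.52, although with total counts only the Vegfa falls and the Met fall with D + Q were not called. The other gene that fell with D + Q was Mmp9, a gelatinase, by 1.71, and it was named after its values were seen. With vehicle Mmp9 was at -0.59 (adjusted p = 0.337 in edgeR).

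Known partners of the serpins came from short lists. The list for Serpinb1a held proteases that are its targets, and Ctsc, which processes neutrophil proteases. Elane was not analysed here, and only Ctsc was tested between MOV and sham, so no target was tested. Ctsc was at 0.42 with vehicle (adjusted p = 0.0753 in edgeR) and 0.70 with D + Q (adjusted p = 5.52e-07). With vehicle Ctsc was called in 5 of 8 alternative fits, among them total counts only (0.81, adjusted p = 0.00871 in edgeR), but in only 1 of the 10 fits that left out a mouse. Of 5 reported receptors of PEDF, Plxdc2 rose by 1.497 and 1.61. Pnpla2, a triglyceride lipase named after its values were seen, fell by 0.51 with D + Q. That call was lost with total counts only (-0.14, adjusted p = 0.278 in edgeR). With vehicle Pnpla2 was at -0.39 (adjusted p = 0.102 in edgeR). Lrp6 was at -0.27 with vehicle (adjusted p = 0.00223) and -0.11 with D + Q (adjusted p = 0.120), and at 0.11 and 0.25 when only total counts were used. Of 28 other genes named Serpin, 12 were tested, of which 6 rose and 0 fell with vehicle and 7 rose and 0 fell with D + Q, while 60.5% and 65.3% of all genes were called. Serpina3n, an acute-phase serpin, rose by 3.13 and 2.90 and Serpinh1, the collagen chaperone HSP47, by 3.00 and 2.97.

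Within groups, the genes whose log2 CPM deviated from the group mean most like a member were found over the 20 mice among 13191 genes with a mean of at least 1 CPM. Each pair of values comes from the same library and shares its scaling factor, so the correlations (Pearson r) are given as a description. Plau was most like Pdgfra (0.89), a receptor used above as a marker of fibro-adipogenic progenitors, A330094K24Rik (0.85) and Slco2b1 (0.85). Serpinf1 was most like Galnt16 (0.95), Dpt (0.94), also a marker used above, and S100a6 (0.93). Plat was most like Pcdh19 (0.89), Ptbp1 (0.87) and Arl6ip1 (0.86), and Plaur like Prph (0.80), Ror2 (0.78) and Itgb5 (0.78). Serpine2 was most like Ptpn9 (0.85), Syk (0.85) and Gm30794 (0.84), and Serpinb1a like Ccdc134 (0.88), Pigw (0.88) and Fras1 (0.84). Between members Serpine2 with Serpinf1 was at 0.69 and Plat with Plaur at 0.68, and without vehicle MOV replicate 2 these were 0.55 and 0.65. Some pairs differed between the surgeries, as Plaur with Serpine2 was at 0.93 over the 10 MOV mice and -0.21 over the 10 sham mice, and Plat with Serpinf1 at 0.92 and -0.04, differences that were not tested. Vehicle MOV replicate 2 was the lowest MOV mouse in each of these genes. Over both surgeries together, leaving it out took Plaur with Serpine2 from 0.25 to 0.03 and Plat with Serpinf1 from 0.59 to 0.37. Correlations over the MOV mice alone were not computed without that mouse, so these drops do not show how far the MOV values of 0.93 and 0.92 rest on it.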

How the data were processed

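The authors aligned reads to GRCm39 with STAR 2.7.8a, estimated gene counts with the expectation-maximization quantifier of Partek against transcriptome release 103, removed low genes and deposited the estimated counts, not normalized, with 1 column per mouse. Each row summed to at least 10 over the 20 mice, 28.8% of values were not whole, and 0 columns were left unused. Strand and extraction batch were not given in the sources used here. Column names were matched to the labels' descriptions, and replicate numbers come from the titles.

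Estimated counts were rounded and tested with edgeR 4.0.16 (R 4.3.3, quasi-likelihood, robust, TMM) after a filter that kept a gene when 5 mice or more in the fit had 10 counts or more, with Benjamini-Hochberg adjustment over all genes tested and a threshold of 0.05. The script was tested on simulated data. Alternatives were DESeq2 1.42.0, limma-voom with quality weights (limma 3.58.1), total counts only, RLE factors, a count minimum of 50 or none, all 20 mice in one fit, a replicate block and each mouse left out. The shares of all genes that DESeq2 and limma-voom called are not given here. No pair of libraries in a group agreed within sampling noise (chi-square per degree of freedom 6.53 or more). Depth limits the precision of Plaur most.

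Named genes are the 6 members, each gene of the plasminogen system list called between MOV and sham, the 3 largest called rises and falls of each other list with vehicle, and any called between D + Q and vehicle. One gene that this rule names is not reported here. For likeness they are the 3 highest correlations. Ctsc, Smyd4 and the Serpinb1a paralogs were named after their values were seen. The members and lists were chosen with earlier results of these data known. Positions and lengths come from GENCODE vM39.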

Additional observations from a re-analysis of the deposited data

Results flagged for a closer look

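In each of the 4 groups the highest and lowest mouse of each of the 6 genes was compared with the others, 24 sets of 5 mice in all, and in 2 sets 1 mouse stood far from the rest (a gap to its nearest neighbor of over 0.71 of the whole range, Dixon's critical value for 5). Chance sets apart about 1 in 20 such sets. Both concern Serpinb1a, which was at 1.61 CPM in vehicle sham replicate 2, where the other 4 mice lay at 2.65 CPM or more, and at 41.3 CPM in vehicle MOV replicate 5, where the other 4 lay at 33.4 CPM or less. Neither value comes near the other surgery's range, and the MOV effect on Serpinb1a with vehicle lay between 3.61 and 3.80 on the log2 scale when each of the 10 mice was left out in turn.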

How the results depend on the processing

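All 6 members were called between MOV and sham muscle in both treatments under DESeq2, RLE factors, no count minimum, limma-voom and all 20 mice in one fit. With total counts only, 5 were called, and Serpine2 turned to 0.10 with vehicle and 0.16 with D + Q on the log2 scale. With a count minimum of 50, 5 of 5 tested were called with vehicle, where Plaur was not tested, and 5 of 6 with D + Q, where Serpine2 was at -0.17 (adjusted p = 0.0538 in edgeR). That call was also lost without D + Q sham replicate 2, D + Q sham replicate 3 or D + Q MOV replicate 1 (adjusted p from 0.0502 to 0.0712), and over all 10 such fits Serpine2 lay between -0.27 and -0.17. No alternative called a member between D + Q and vehicle or in the interaction.

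Effects near 0 changed sign. Between D + Q and vehicle in sham muscle, Serpine2 was at 0.0253 with total counts only, 0.0101 with limma-voom, 0.000605 with all 20 mice in one fit and between -0.0485 and 0.0556 with a mouse left out, and Serpinb1a was at -0.0290 with limma-voom and between -0.11 and 0.17 with a mouse left out. In MOV muscle, Serpine2 lay between -0.0358 and 0.0916 with a mouse left out. In the interaction with a mouse left out, Plau lay between -0.14 and 0.21, Plat between -0.0730 and 0.27, Serpine2 between -0.0443 and 0.0972 and Serpinf1 between -0.0547 and 0.25, Plaur stayed below 0 (-0.77 to -0.10), and Plau was at 0.15 with limma-voom and at 0.0209 with the replicate block. The D + Q effect on Serpine2 averaged over both surgeries was -0.0194 without vehicle MOV replicate 2. Lrp6 between MOV and sham muscle turned to 0.11 with vehicle and 0.25 with D + Q with total counts only. The cause was not tested.

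The titles number the mice in each group, and correlations of deviations between same-numbered mice of 2 groups lay from -0.256 to 0.282. These correlations cannot exclude a shared cage, surgery day or batch. The column names carry other numbers, and mice matched by those were not compared. With the number as a replicate block, 6 members were called between MOV and sham muscle in both treatments and 0 in the other comparisons. The Thbd call in sham muscle (0.69, adjusted p = 0.0761) and the Mmp13 call with D + Q (2.48, adjusted p = 0.0708) were lost under the block. Without 1 of 3 mice (D + Q sham replicate 1 or 2, D + Q MOV replicate 3) the Mmp13 call was lost as well, and the Plgrkt call with D + Q was lost with all 20 mice in one fit (adjusted p = 0.0686) and without D + Q sham replicate 5 (adjusted p = 0.0647). In sham muscle the number of plasminogen system genes called between D + Q and vehicle was 3 with DESeq2 (Thbd, Lrp1 and Mrc2, named after the values were seen), 1 in the edgeR fit reported and 0 with the replicate block. In that edgeR fit 0.215% of all genes tested were called. The share that DESeq2 called is not given here, so its count cannot be set against all genes. Depth limits Plaur most, with 3 to 27 counts in sham mice.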

Other observations

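The summed fibro-adipogenic progenitor markers were also higher on average with D + Q, at 597 ± 102 CPM against 455 ± 64.1 CPM (SD, n = 5) in sham and 4411 ± 541 CPM against 3423 ± 726 CPM in MOV muscle. Tenocyte markers were at 67.8 ± 6.52 CPM against 49.7 ± 7.80 CPM in sham and 280.1 ± 32.5 CPM against 203 ± 30.2 CPM in MOV muscle. No single marker of either list passed edgeR's test between D + Q and vehicle, while at an unadjusted p under 0.05 there were 5 of 8 and 3 of 5 in sham and 3 of 8 and 3 of 5 in MOV muscle, beside 10.2% of all genes in sham and 8.79% in MOV muscle. The part of these cells in the values of the 6 genes was not tested.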
